A study of Mus musculus with 25 samples.

Results

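The respiratory chain genes described here are the 106 genes of the table whose symbols begin with mt-, Nduf, Uqcr or Atp5, or name the subunits of succinate dehydrogenase (Sdha, Sdhb, Sdhc and Sdhd) or cytochrome c oxidase (Cox4 to Cox8). They were chosen by symbol alone, out of 14457 genes measured in mouse atria. Of the 106 members, 15 are encoded by mitochondrial DNA and 91 by nuclear chromosomes. The mitochondrially encoded members are 10 protein genes, 2 ribosomal RNA genes and 3 transfer RNA genes. The nuclear members are 80 subunit genes, 8 assembly factors of complex I (the Ndufaf genes), the supercomplex factor Cox7a2l, and Atp5s and Atp5l2-ps. The 80 subunit genes divide into 36 of complex I, 4 of complex II, 8 of complex III, 17 of complex IV (Ndufa4 and Ndufa4l2 included) and 15 of complex V.

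The respiratory chain sits in the inner mitochondrial membrane. Complexes I and II pass electrons from NADH and succinate to ubiquinone, complex III passes them on to cytochrome c, and complex IV hands them to oxygen. Complexes I, III and IV pump protons, and complex V, the ATP synthase, uses the resulting gradient to make ATP. Complexes I, III, IV and V are built from subunits of both genomes, while complex II is nuclear only. Atrial muscle contracts without pause and is rich in mitochondria.

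The libraries came from mice labelled wild type or PAM knockout. Pam encodes peptidylglycine alpha-amidating monooxygenase, the enzyme that amidates peptide hormones, and its protein is a major component of atrial secretory granules. There were 7 wild-type male libraries (WM1 to WM7), 5 wild-type female (WF8 to WF12), 5 knockout male (KM13, KM01, KM03, KM05 and KM07) and 8 knockout female (KF14 to KF21). All 25 came from untreated adult mice 60 to 90 days old, from RNA of individual atria, prepared as stranded mRNA libraries and sequenced together. The sources used here give neither the strain nor the allele, nor the cells in which Pam was removed. The labels do not say that each library is a separate animal, so p-values measure the spread between these libraries. In bulk tissue, fewer cells of a type and less RNA per cell cannot be told apart.

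By the way the labels name them, the libraries form 3 sets, and what the names stand for is not stated. The LARA set holds 12 libraries with names starting LA or RA (WM1 to WM4, WF8, WF9, KM13 and KF14 to KF18). The CGI set holds 9 libraries (WM5 to WM7, WF10 to WF12 and KF19 to KF21). The MaleKOAtrium set holds KM01, KM03, KM05 and KM07 and no other genotype or sex. Genotype and name set therefore overlap almost completely in males, where KM13 is the only knockout library outside the MaleKOAtrium set.

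Values are CPM, reads of a gene scaled to a common library total, at depths of 2246887 to 8098602 reads (median 5385966). At those depths 3 reads, the floor for a gene with no read, correspond to 0.37 to 1.34 CPM, and floors cover counting error only. Pam measured 295 to 520 CPM in the 13 knockout libraries and 1409 to 6245 CPM in the 12 wild-type libraries, with no overlap, so that every library matched its genotype label. The atrial myocyte markers (Myl7, Myl4, Nppa, Sln and others, 8 genes) summed to 13159 CPM or more in 24 libraries. The exception was WF10 at 3524 CPM, which was also the least deep library and the highest for the ventricular light chain Myl2 at 4724 CPM. KM01 was the second least deep library, with 2494461 reads. Some results that rest on WF10 or KM01 are also given without them, and others are given with them only.

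Mitochondrial transcripts dominated the members. Per kilobase of exon, the highest was mt-Co1, the catalytic subunit of complex IV, with a mean over 25 libraries of 17382 CPM per kb. Next was mt-Cytb, the cytochrome b of complex III, at 15584 CPM per kb. The membrane-arm subunits of complex I followed, with mt-Nd1 at 12558, mt-Nd2 at 11132, mt-Nd5 at 8425, mt-Nd4 at 6691 and mt-Nd6 at 5930 CPM per kb. These 7 genes were each above every nuclear member. The highest nuclear member was Cox6a2, the heart and skeletal muscle isoform of a complex IV subunit, at 1973 CPM per kb. It was followed by Cox6b1 at 1086, Cox8b at 1085, Cox7a1 at 927 and Atp5c1, the gamma subunit of ATP synthase, at 898 CPM per kb. Of these, Cox7a1 and Cox8b are also muscle isoforms.

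Among nuclear subunit genes, the median level per kilobase was 192 CPM per kb for complex I, 313 for complex II, 549 for complex III, 371 for complex IV and 305 for complex V. Complex IV had the widest range, from 2.55 CPM per kb for Cox6b2, an isoform best known from testis, to 1973 CPM per kb for Cox6a2. Other isoforms with restricted expression were also low: Cox4i2, known from lung and oxygen sensing, averaged 6.46 CPM per kb, and Ndufa4l2, a hypoxia-responsive paralogue of Ndufa4, averaged 10.2 CPM per kb. Ndufb2, an accessory subunit of complex I, averaged 5.37 CPM per kb over an annotated exon length of 5628 bases. That length joins all annotated transcripts, so levels per kilobase of genes with long alternative exons are understated. Without division by length, Ndufb2 averaged 30.2 CPM, still the lowest of the nuclear complex I subunits, with Ndufb6 next at 111 CPM.

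**Figure D1:**
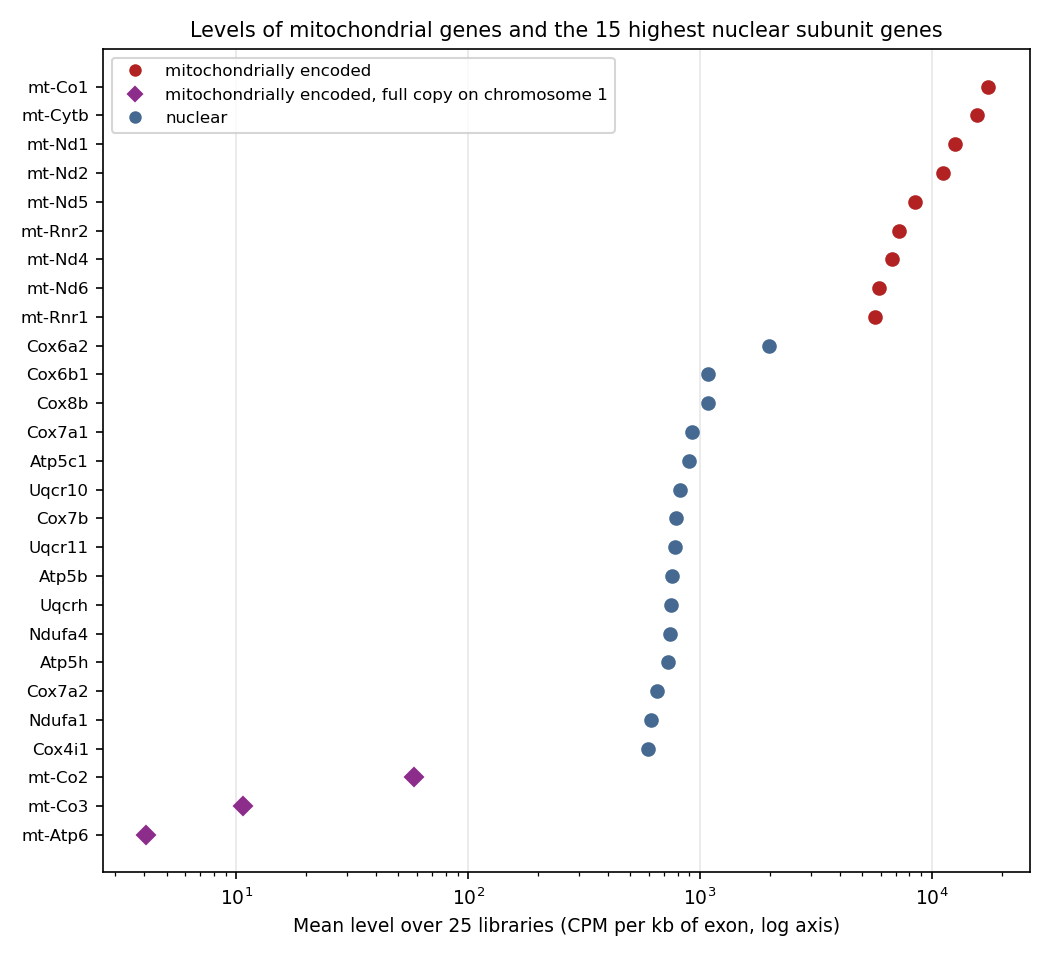
Mean level over 25 libraries in CPM per kb of exon (horizontal log axis) for the mitochondrial protein and rRNA genes and the 15 highest nuclear subunit genes, with 1 point for each gene. The 9 mitochondrial genes without a full copy on chromosome 1 lie between 5690 and 17382 CPM per kb, the nuclear genes lie at or below 1973, and the 3 genes with a full copy (diamonds) lie between 4.06 and 58.2.

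The mitochondrially encoded genes mt-Co2, mt-Co3 and mt-Atp6 went against this order, and they share a property of their sequences. The means were 58.2 CPM per kb for mt-Co2, 10.7 for mt-Co3 (both core subunits of complex IV) and 4.06 for mt-Atp6 (the proton channel subunit of complex V). Each has a copy of nearly its whole length, with every aligned base identical, in a cluster of unprocessed pseudogenes on chromosome 1 (GRCm38, bases 24611535 to 24616197, minus strand). The copy of mt-Co3 is Gm28437 (783 identical bases), that of mt-Atp6 is Gm10925 (678 bases) and that of mt-Co2 is Gm28661 (681 bases). Partial copies cover 63.6% of mt-Nd4 (Gm28439) and 31.3% of mt-Co1 (Gm29216). The first 60 bases of mt-Co3 (chrM:8607-8666, plus strand) and of its copy (chr1:24613912-24613971, minus strand) are shown because no read within them can be assigned to one locus by sequence. The start codon is in capitals.
mt-Co3: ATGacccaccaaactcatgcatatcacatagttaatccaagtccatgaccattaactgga
Gm28437: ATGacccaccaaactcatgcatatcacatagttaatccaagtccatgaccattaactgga
How reads with several equally good positions were counted is not given in these sources. For that reason mt-Co2, mt-Co3 and mt-Atp6 are uncertain, and summaries of mitochondrial genes below also use the 7 protein genes without a full copy. These 7 include mt-Nd4 and mt-Co1, whose levels and places in the order are less certain because of their partial copies.

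The copy of mt-Nd3, Gm28438, aligned over 345 bases and differed from mt-Nd3 at 1 of them. The difference is T3C, counted from 1 at the first base of the gene, with the base of mt-Nd3 first. The first 33 bases of both are shown with that base in capitals.
mt-Nd3: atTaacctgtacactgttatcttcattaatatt
Gm28438: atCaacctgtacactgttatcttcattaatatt
Gm28438 is in the table and mt-Nd3, mt-Nd4l and mt-Atp8 were not analysed here. Gm28438 measured 35.1 to 112 CPM in 19 libraries and 0.394 to 6.78 CPM in WM7, WF8, WF9, KM13, KF18 and KF21. Those 6 libraries come from all 4 groups and from both the LARA and CGI sets. mt-Co3 itself varied 113-fold between libraries, from 0.542 CPM in KF21 to 61.5 CPM in WM7, with 44.6 CPM in WM5 and 22.3 CPM in KM07. mt-Co3 was 12.6 CPM or lower in the other 22 libraries, in every group.

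For the nuclear members, the promoter sequences of RefSeq (GRCm38.p6, 250 bases before to 50 after the start) were searched for letters known to be bound by factors of respiratory genes. Sequences were matched for 75 of 91 nuclear members. The site letters of nuclear respiratory factor 1 were searched on both strands as GCGCA and GCGC with any 1 base between them. They were present in 25.3% of the nuclear members. The same letters were present in 10.8% of the 10751 genes of the table with a promoter sequence, and in 5.19% of all 27025 genes with one. A gene with several promoters was counted once. The letters CCGGAAGTG (GA-binding protein, either strand) were in 2.67% of the nuclear members and 4.6% of the genes of the table. TCAAGGTCA (estrogen-related receptors, either strand) was in 2.67% and 0.344%. A match describes the letters and is no evidence of binding.

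The promoters of Sdha and Ndufa11, members whose levels differed between the name sets as described below, are shown as examples, with matches to the first of these motifs in capitals. The Sdha stretch is chr13:74350281-74350360 (minus strand), bases -120 to -41 from the start, with matches at -98 and -55. The Ndufa11 stretch is chr17:56717642-56717761 (plus strand), bases -120 to -1, with a match at -60.
Sdha: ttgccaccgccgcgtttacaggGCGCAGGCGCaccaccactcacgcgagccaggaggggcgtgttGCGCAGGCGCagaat
Ndufa11: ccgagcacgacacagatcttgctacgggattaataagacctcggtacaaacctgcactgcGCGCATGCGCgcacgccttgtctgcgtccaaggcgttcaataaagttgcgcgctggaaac

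As a share of the library, the 15 mitochondrial members took a median of 10.01% of CPM, from 7.70% in KM13 to 30.2% in WF10. The 10 protein genes took 7.12%, 10.3% and 11.4% (lowest, median and highest) in wild-type males and 7.11%, 8.96% and 17.2% in knockout males. They took 7.15%, 7.60% and 16.4% in wild-type females and 6.93%, 8.65% and 11.8% in knockout females. The 4 groups overlapped over most of their ranges, and the 2 highest libraries, KM01 in knockout males and WF10 in wild-type females, were the 2 least deep. Without these, the highest wild-type female library was WF8 at 9.90% and the highest knockout male library was KM05 at 9.20%.

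The 2 ribosomal RNA genes, whose transcripts are not the target of an mRNA library, took 13.8% of CPM in WF10 and 4.96% in WF12. They took 0.562% to 2.05% in the other 23 libraries. mt-Rnr1, the small ribosomal RNA (chrM, bases 70 to 1024), measured 49485 CPM in WF10, 18392 CPM in WF12 and 1601 to 6130 CPM elsewhere. mt-Rnr2, the large ribosomal RNA (chrM, bases 1094 to 2675), measured 88561 CPM in WF10, 31160 CPM in WF12 and 3831 to 14718 CPM elsewhere. Both high libraries were wild-type female and of the CGI set.

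The 80 nuclear subunit genes took 3.57%, 4.21% and 5.43% of CPM in wild-type males, and 3.61%, 4.06% and 4.76% in wild-type females. They took 2.49%, 3.46% and 6.04% in knockout males and 3.49%, 4.62% and 5.64% in knockout females. Knockout males spanned the lowest and the highest of all 25 libraries. Their 4 MaleKOAtrium libraries lay at 2.49% to 3.76% and KM13 at 6.04%. In the other 2 sets, the share was 3.49% to 5.30% in CGI libraries, 4.03% to 5.48% in those named LA and 3.88% to 6.04% in those named RA.

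**Figure D2:**
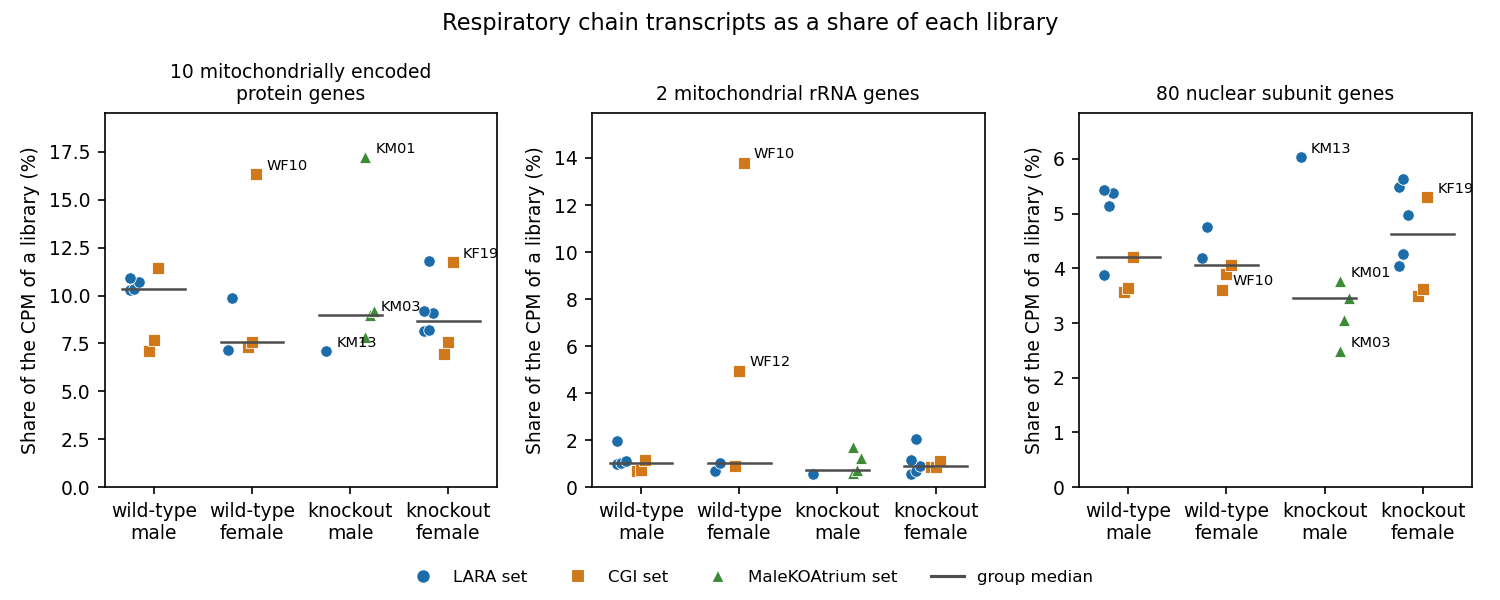
Share of each library's CPM (%, vertical axes from 0) taken by the 10 mitochondrial protein genes, the 2 mitochondrial rRNA genes and the 80 nuclear subunit genes, with 1 point for each library, symbols for the name sets and bars at the group medians. WF10 and KM01 stand highest for protein genes at 16.4% and 17.2%, WF10 and WF12 for rRNA at 13.8% and 4.96%, and KM13 and KM03 mark the highest and lowest nuclear share at 6.04% and 2.49%.

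The balance between the genomes was followed as the mean log2(CPM + 1) of the 7 mitochondrial protein genes without a full copy minus that of the 80 nuclear subunit genes. This difference of levels was 4.75 to 5.26 in wild-type males and 4.50 to 5.01 in knockout females. In wild-type females it was 4.64 to 6.12, with the highest value in WF10. In the MaleKOAtrium libraries it was 5.15 to 5.94, and in KM13 it was 4.04, the lowest of all 25. The range of knockout males thus enclosed those of wild-type males and knockout females.

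By complex, the nuclear subunit genes took a median share over 25 libraries of 1.21% for complex I, 0.279% for complex II, 0.461% for complex III, 0.861% for complex IV and 1.31% for complex V. KM03 was the lowest library for 63 of 106 members and KM01 for 19, while KF19 was the highest for 34, KM13 for 25 and KM01 for 16. KM01 thus held extremes in both directions. Outside the mitochondrial genes, Ndufab1, the acyl carrier protein of complex I, was the steadiest named here, with a highest level 1.76-fold above its lowest. Sdha, the flavoprotein subunit of complex II, varied 9.15-fold, Ndufv1, the NADH-binding subunit of complex I, 8.71-fold, and Ndufs1, its largest iron-sulfur subunit, 7.55-fold. KM01 was the lowest library for Sdha, Ndufv1 and Ndufs1, so these folds rest on it.

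In KM01 a list of central subunits, called core here, was low on average. Its 13 members are the 7 nuclear core subunits of complex I together with Sdha, Sdhb, Uqcrfs1, Cox4i1, Cox5a and Atp5b, of which Cox4i1 and Cox5a carry no redox centre. Of these, Sdha measured 183 CPM, Ndufs1 150 CPM and Ndufv1 118 CPM in KM01, each the lowest of 25 libraries. The accessory subunit Ndufa9 was also lowest there, at 96.6 CPM. Sdhc, Sdhd, Uqcrc1, Uqcrc2, Atp5a1, Atp5f1 and Cox6a2, all outside the core list, were lowest in KM01 too. The core members Ndufv2 and Cox4i1 lay above their 25-library means there. Atp5e, the epsilon subunit of ATP synthase, measured 739 CPM and Cox7a2 945 CPM in the same library. Relative to the 25-library mean of log2(CPM + 1), the 13 core members averaged -0.97 in KM01 and the 67 other nuclear subunits 0.03. The difference between core and other members was -1.01 in KM01, -0.50 in KF19 and -0.25 in WM1, and at the other end 0.31 in KM13 and 0.37 in WF9. The median exon length was 2178 bases for core members and 1381 bases for the others, and whether length takes part in this difference was not tested. As a description, the 40 shorter subunit genes exceeded the 40 longer ones by 0.55 in KM01, 0.25 in KF19 and 0.17 in WM7, and fell short of them by 0.17 in WM3.

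The comparison of knockout with wild type in both sexes asked which members differ when PAM is reduced. None of the 106 members passed the test (limma on log2(CPM + 1), Benjamini-Hochberg adjusted p under 0.05, name set and sex as terms). Of all genes, 0.00692% passed, which is 1 gene, Pam itself, with a log2 difference of -3.29 ± 0.24 (SE, adjusted p = 1.99e-09). By edgeR and DESeq2 no member passed either, beside 1 and 3 of all genes. At an unadjusted limma p under 0.05 there were 2 higher and 3 lower members, beside 2.57% and 1.11% of all genes. Because name set is a term and the MaleKOAtrium set holds no wild type, the 4 MaleKOAtrium libraries do not enter this difference, which rests on the knockout females and KM13.

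Among mitochondrial protein genes, 10 of 10 had a log2 difference below 0, with a median of -0.16 beside 0.07 over all genes. mt-Co1 measured 18731 CPM, 20350 CPM and 41732 CPM (lowest, median and highest) in wild-type females and 18916 CPM, 25663 CPM and 34159 CPM in knockout females. In wild-type males mt-Co1 measured 20007 CPM, 28538 CPM and 31287 CPM, and in knockout males 20487 CPM, 25351 CPM and 52072 CPM. The groups overlapped widely, the highest library of each genotype being WF10 and KM01, and the log2 difference of mt-Co1 was -0.05 ± 0.24 (limma adjusted p = 0.990).

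The other complex I, III and V genes of mitochondrial DNA had estimates of similar size. The log2 differences were -0.06 ± 0.24 for mt-Cytb, -0.16 ± 0.23 for mt-Nd1, -0.24 ± 0.22 for mt-Nd2, -0.15 ± 0.23 for mt-Nd4, -0.32 ± 0.22 for mt-Nd5 and -0.28 ± 0.20 for mt-Nd6. Those of the genes with full copies were -0.14 ± 0.26 for mt-Co2, -0.72 ± 0.60 for mt-Co3 and -0.10 ± 0.44 for mt-Atp6. None of these estimates lay 2 standard errors from 0. The median of the 7 genes without a full copy was -0.16 as deposited and 0.13 after quantile normalization, so its direction depends on the scaling.

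The smallest p-values among the members belonged to the ribosomal RNAs. The log2 difference was -0.96 ± 0.44 for mt-Rnr2 (limma unadjusted p = 0.0384, adjusted p = 0.981) and -1.01 ± 0.49 for mt-Rnr1 (unadjusted p = 0.0462, adjusted p = 0.981). Without WF10 and WF12, the high wild-type libraries described above, the log2 differences were -0.16 ± 0.32 for mt-Rnr2 and -0.05 ± 0.31 for mt-Rnr1, so both estimates rest on those libraries. mt-Tc, the cysteine transfer RNA, followed with -0.90 ± 0.44 (limma adjusted p = 0.981), at levels of 0 to 15.9 CPM.

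Of the 80 nuclear subunit genes, 74 had a log2 difference above 0, beside 63.6% of all genes, with a median of 0.17. The medians were 0.17 for complex I (33 of 36 above 0), 0.08 for complex II (3 of 4), 0.19 for complex III (8 of 8), 0.18 for complex IV (17 of 17) and 0.15 for complex V (13 of 15). The smallest p-values among the nuclear subunits were those of Ndufa13, an accessory subunit also known as GRIM-19, at 0.31 ± 0.15, and Ndufb2 at 0.29 ± 0.14 (limma adjusted p = 0.981 for both). Without name set as a term, which lets the MaleKOAtrium libraries in, the nuclear median was -0.04.

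The muscle and general isoforms of complex IV were set side by side. The log2 differences were 0.11 ± 0.15 for Cox6a2 and 0.12 ± 0.18 for its general counterpart Cox6a1. They were 0.30 ± 0.17 for Cox7a1 and 0.28 ± 0.19 for Cox7a2, and 0.20 ± 0.19 for Cox8b and 0.19 ± 0.16 for Cox8a. None passed the test (limma adjusted p of 0.981 to 0.987). The ratio of Cox6a2 to Cox6a1 in CPM had group medians of 12.5 in wild-type males, 9.53 in knockout males, 11.4 in wild-type females and 13.9 in knockout females. Over libraries that ratio ran from 3.43 in KM01 to 24.2 in WF10, wider than the differences between the groups. Without KM01 and WF10 it ran from 7.31 in KM07 to 18.2 in WM3. Cox7a1 to Cox7a2 ran from 0.479 in KM01 to 1.01 in KM13, and Cox8b to Cox8a from 1.13 to 3.24, highest in WF10.

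In the authors' deposited table of the knockout against wild-type comparison, 1 of 106 members had a p-value under 0.05, mt-Atp6 at 0.0216, lower in knockout. In that deposited table the same held for 1062 of 14379 genes, and no source used here says whether those p-values were adjusted.

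Among females alone (8 knockout against 5 wild type, name set as a term), again no member passed, by limma, edgeR or DESeq2, beside 0.0138% of all genes by limma. edgeR called 1 and DESeq2 called 11 of all genes in females. At an unadjusted limma p under 0.05 there was 1 member, beside 3.94% of all genes. Sdha had the smallest p-value of the members. It measured 992 CPM, 1143 CPM and 1591 CPM (lowest, median and highest) in wild-type females and 396 CPM, 939 CPM and 1675 CPM in knockout females. Knockout KF19 was lowest and knockout KF15 highest, so the wild-type range lay inside that of the knockout. The log2 difference was -0.62 ± 0.22 (limma unadjusted p = 0.0110, adjusted p = 0.935).

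Estimates above 0 were led, by p-value, by Atp5e, and none passed. The log2 differences in females were 0.42 ± 0.21 for Atp5e, 0.35 ± 0.18 for Ndufa13, 0.36 ± 0.19 for Cox7a2 and 0.31 ± 0.18 for Ndufb2 (limma adjusted p = 0.935 for each). Over the 80 nuclear subunits the median was 0.18, with 63 above 0, beside 69.1% of all genes above 0 and a median over all genes of 0.11. Core and accessory members of complex I differed in their medians in females, at -0.06 for the 7 core subunits and 0.21 for the 29 accessory ones. Named core members ran from -0.29 ± 0.19 for Ndufs1 and -0.28 ± 0.20 for Ndufv1 to 0.18 ± 0.18 for Ndufs8 and 0.26 ± 0.20 for Ndufv2. The difference between the core and accessory lists was not tested. The mitochondrial protein genes had a median of -0.05 in females, 0.09 without WF10 and WF12 and 0.16 after quantile normalization.

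In males (5 knockout against 7 wild type) no member passed the test, by limma, edgeR or DESeq2, beside 0.277% of all genes by limma (40 genes, 36 of them lower in knockout). Among all 14457 genes, edgeR called 40 and DESeq2 called 413 in males. Nuclear members had lower estimates in knockout than in wild-type libraries as a whole: 72 of 80 subunits had a log2 difference below 0, with a median of -0.32, beside 56.6% of all genes above 0. The medians were -0.35 for complex I (34 of 36 below 0), -0.35 for complex II (4 of 4), -0.35 for complex III (8 of 8), -0.25 for complex IV (12 of 17) and -0.31 for complex V (14 of 15). The mitochondrial protein genes had a median of -0.01. At an unadjusted p under 0.05, 12 members were lower and 2 higher, beside 6.47% and 5.36% of all genes.

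Sdhd, the membrane anchor of complex II that helps bind ubiquinone, had the smallest p-value. It measured 264 CPM in KM01, 355 CPM in KM03, 419 CPM in KM07, 464 CPM in KM05 and 683 CPM in KM13. In wild-type males Sdhd measured 610 CPM, 705 CPM and 799 CPM (lowest, median and highest). The 4 MaleKOAtrium libraries lay below every wild-type male and KM13 lay within their range. The log2 difference of Sdhd was -0.75 ± 0.21 (limma unadjusted p = 0.00270, adjusted p = 0.190).

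Complex I members with small p-values had a similar order of libraries. Ndufs8, a core iron-sulfur subunit of complex I, measured 152 to 241 CPM in the MaleKOAtrium libraries, 527 CPM in KM13 and 300 to 436 CPM in wild-type males. Ndufa9, an accessory subunit of complex I, measured 96.6 to 295 CPM in the MaleKOAtrium libraries, 580 CPM in KM13 and 360 to 531 CPM in wild-type males. For both genes the MaleKOAtrium libraries lay below and KM13 above the whole wild-type range. The log2 differences were -0.65 ± 0.26 for Ndufs8, -0.83 ± 0.32 for Ndufa9 and -0.68 ± 0.23 for Uqcrc2, a core protein of complex III. Those of Ndufb3, Ndufa1 and the assembly factor Ndufaf3 were -0.59, -0.64 and -0.66.

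Restricted isoforms of complex IV had estimates of the opposite sign. Ndufa4l2 measured 11.6 to 22.0 CPM in knockout males and 3.95 to 12.04 CPM in wild-type males, and the groups overlapped only in that KM03 lay just below WM6 and WM7. Its log2 difference was 0.81 ± 0.26 (limma unadjusted p = 0.00634, adjusted p = 0.238). Cox4i2 had a log2 difference of 0.56 ± 0.26 (limma adjusted p = 0.421), at 4.996 to 8.02 CPM in knockout and 1.86 to 7.43 CPM in wild-type males. Cox6b2 had a log2 difference of 0.27 ± 0.31 (limma adjusted p = 0.768). The muscle isoforms were below 0, at -0.54 ± 0.27 for Cox6a2, -0.37 ± 0.25 for Cox7a1 and -0.46 ± 0.30 for Cox8b.

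The male result turned on which libraries were used. Without KM13, 5 members passed, beside 205 of all genes (1.42%), and all 5 were lower in knockout: Ndufa9 at -1.14 (limma adjusted p = 0.0491), Ndufs8 at -0.95 (0.0216), Sdhd at -0.93 (0.0250), Ndufaf3 at -0.91 (0.0242) and Ndufa13 at -0.84 (0.0388). The nuclear median was then -0.47, while without KM03 it was -0.14. Without KM01 the nuclear median was -0.42 and the mitochondrial one -0.23. With name set as a term, the male difference is KM13 against the wild-type LARA males, and the nuclear median was 0.20 and the mitochondrial one -0.58. In the 4 libraries that carry the lower values, genotype cannot be told apart from the name set. Marker lists of other cells also differed in this contrast. Of 9 mesothelial markers, 9 were below 0 in knockout males (median -1.44) and 3 passed the test (Krt8, Lrrn4 and Upk1b), with a summed level of 225 to 869 CPM in knockout and 913 to 1425 CPM in wild-type males. Of 7 erythroid markers, 7 were above 0 (median 1.38, 0 passing), with a summed level of 2058 to 5505 CPM in knockout and 382 to 2945 CPM in wild-type males. Of 6 immune markers, 6 were above 0 (median 0.64, 0 passing), with a summed level of 223 to 279 CPM in knockout and 148 to 217 CPM in wild-type males, which did not overlap. Of 6 ventricular myocyte markers 5 were below 0 (median -0.77), and of 8 fat cell markers 6 were (median -0.64), with 0 passing in both lists. Bmp10, known in the adult mouse heart as a right atrial gene, measured 46.5 to 7597 CPM in the MaleKOAtrium libraries, and its log2 difference in males was 3.97 ± 2.42 (limma adjusted p = 0.548). Their part in the result was not tested.

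The difference between the sexes in the knockout effect (female minus male, name set as a term) was tested as an interaction. No member and no other gene passed with limma, beside a background of 0%, and at an unadjusted p under 0.05 there were 11 lower members and 0 higher, beside 1.78% and 7.39% of all genes. edgeR called 0 members, beside 10 of all genes (0.0692%), and DESeq2 called 6, all lower, beside 235 of all genes (1.63%). They included Uqcrc1, Ndufs7, Atp5a1, Atp5b and Atp5d, with DESeq2 adjusted p-values of 0.0157 to 0.0396.

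Uqcrc1, a core protein of complex III, had the smallest p-value. It measured 538 CPM in KM13, 166 to 296 CPM in the MaleKOAtrium libraries and 242 to 302 CPM in wild-type males. In females Uqcrc1 measured 270 CPM, 335 CPM and 397 CPM (lowest, median and highest) in wild type and 220 CPM, 321 CPM and 382 CPM in knockout. KM13 was above every other library. The interaction of Uqcrc1 was -1.06 ± 0.32 (limma unadjusted p = 0.00291, adjusted p = 0.319).

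Core subunits of complexes I, II and V were among the members with small p-values: Ndufs7 at -1.08 ± 0.36, Atp5b, the catalytic beta subunit of ATP synthase, at -1.07 ± 0.44, Ndufv1 at -1.28 ± 0.53 and Sdha at -1.31 ± 0.61. Of the 14 core subunit genes (Cyc1, whose symbol lies outside the rule, included), 13 were below 0, with a median of -0.73 beside 0.25 over all genes, of which 68.4% were above 0. With name set as a term, the male side of this interaction rests on KM13 alone among knockout libraries, and KM13 was highest of all 25 libraries for 25 members.

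**Figure D3:**
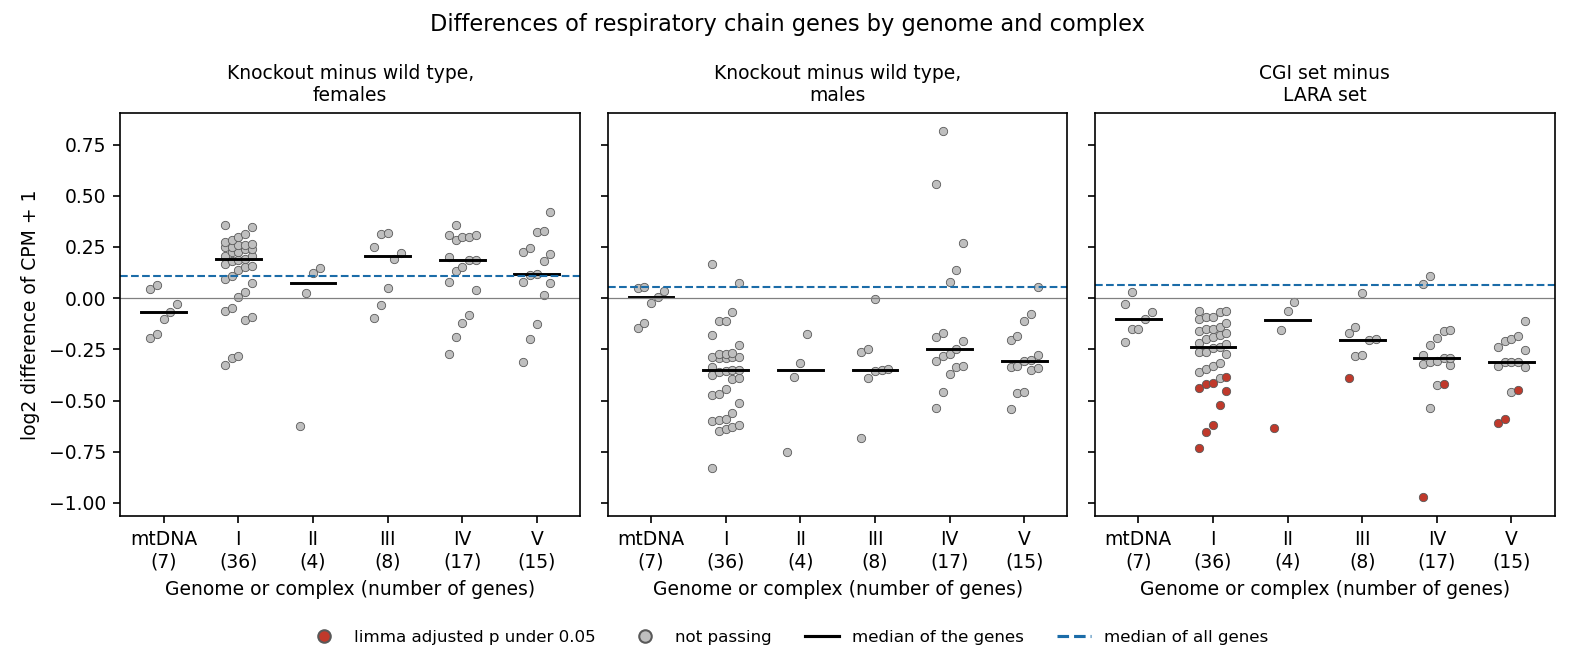
Log2 difference of CPM + 1 (vertical axis) of the 7 mitochondrial protein genes without a full copy and of the nuclear subunit genes of complexes I to V, for knockout minus wild type in females and in males and for the CGI minus the LARA set, with 1 point for each gene, bars at the medians and a dashed line at the median of all genes. No gene passed in either sex, the male medians of the complexes lie between -0.35 and -0.25, and 16 nuclear subunit genes (red) passed in the CGI against LARA contrast, all below 0.

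The clearest differences among the members ran along the library names. CGI was compared with LARA over the 20 libraries of the 3 groups that hold both sets (both female groups and the wild-type males), with group as a term. Of the 106 members, 17 were lower in the CGI set and 0 higher. Of all genes, 3.02% were lower and 4.8% higher (limma, Benjamini-Hochberg adjusted p under 0.05). The 17 were 16 nuclear subunits and the glutamine transfer RNA mt-Tq. They included 9 of 36 complex I genes, 1 of 4 complex II, 1 of 8 complex III, 2 of 17 complex IV and 3 of 15 complex V genes. None of the 10 mitochondrial protein genes passed, and their median was -0.08.

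Cox5a, a nuclear subunit of complex IV (chr9, bases 57521274 to 57532426), had the largest difference. It measured 149, 128 and 140 CPM in CGI wild-type males, 197, 201 and 197 CPM in CGI wild-type females and 184, 160 and 169 CPM in CGI knockout females. In the LARA set Cox5a measured 268 to 402 CPM in wild-type males, 303 and 343 CPM in wild-type females and 234 to 451 CPM in knockout females. The sets did not overlap, within any group or over the 20 libraries. The log2 difference was -0.97 ± 0.13 (limma adjusted p = 3.56e-04), the MaleKOAtrium libraries measured 161 to 241 CPM, and KM13 measured 497 CPM. Knockout against wild type gave -0.12 ± 0.18 for Cox5a in females (limma adjusted p = 0.947).

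Complex I, the largest complex with 36 of the 80 nuclear subunits, supplied most of the lower members. Ndufb2 measured 13.8 to 26.1 CPM in CGI libraries and 24.4 to 44.5 CPM in the LARA libraries compared. The sets overlapped only between KF19 and WF9, and the log2 difference was -0.73 ± 0.11 (limma adjusted p = 0.00134). Ndufa11, a membrane-arm accessory subunit whose promoter is shown above, measured 189 to 346 CPM in CGI and 342 to 599 CPM in LARA libraries, and its log2 difference was -0.65 ± 0.13 (limma adjusted p = 0.00650). Ndufa10 fell by 0.62 ± 0.15 on the log2 scale and the core iron-sulfur subunit Ndufs7 by 0.52 ± 0.13 (limma adjusted p = 0.0154 and 0.0187). Ndufs1, Ndufc1, Ndufa3 and Ndufab1 also passed, with differences of -0.45 to -0.39.

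In complex II, Sdha was lower with a log2 difference of -0.63 ± 0.16 (limma adjusted p = 0.0209). It measured 396 to 1143 CPM in CGI libraries, 753 to 1503 CPM in those named LA and 813 to 1675 CPM in those named RA, so the sets overlapped. In complex V, the peripheral stalk subunit Atp5o (chr16, bases 91925214 to 91931687) was lower at -0.61 ± 0.12, the membrane ring gene Atp5g3 at -0.59 ± 0.13 and Atp5b at -0.45 ± 0.14 (limma adjusted p = 0.00590, 0.00967 and 0.0456). In complex III the Rieske protein gene Uqcrfs1 was lower at -0.39 ± 0.12 (limma adjusted p = 0.0404). In complex IV the muscle isoform Cox6a2 was lower at -0.42 ± 0.13 (limma adjusted p = 0.0455), whereas Cox7a1 at -0.20 ± 0.14 and Cox8b at -0.42 ± 0.14 did not pass. mt-Tq, at 0 to 6.73 CPM, lay near the floor of 3 reads in many libraries, and its log2 difference was -0.97 ± 0.29 (limma adjusted p = 0.0448).

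**Figure D4:**
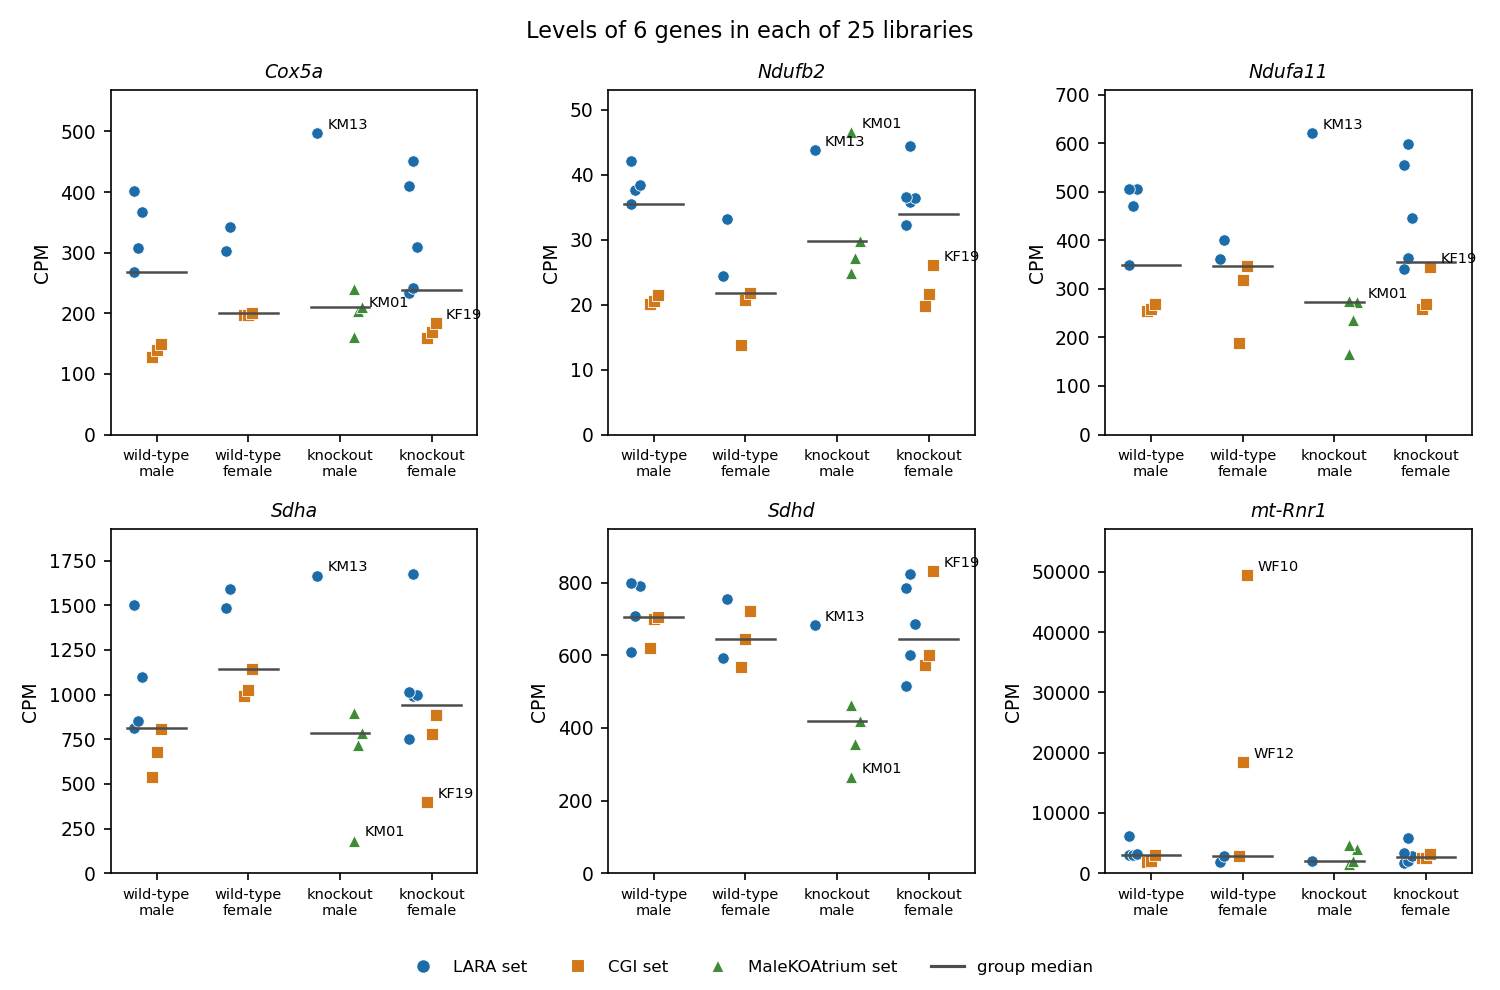
Level in CPM (vertical axes from 0) of Cox5a, Ndufb2, Ndufa11, Sdha, Sdhd and mt-Rnr1 in each of 25 libraries by group, with symbols for the name sets and bars at the group medians. For Cox5a the 9 CGI libraries (128 to 201 CPM) lie below every LARA library, for Sdhd the 4 MaleKOAtrium libraries (264 to 464 CPM) lie below every other library, and for mt-Rnr1 WF10 and WF12 stand apart.

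All 17 were lower in CGI than in LARA within each of the 3 groups, the smallest difference being -0.06 for Cox6a2 in wild-type females. The 17 were picked by a fit to these same libraries, so the shared direction is no separate support. Of the 17, 8 passed in every fit that left out 1 of the 20 libraries: Cox5a, Ndufb2, Ndufa11, Sdha, Ndufa10, Atp5o, Atp5g3 and Ndufs7. Without the libraries named LA, Cox5a was the only one of the 17 to pass (limma adjusted p = 0.0298), and 12 genes of all passed (0.083%). edgeR called 14 of the 17 and 22 of 106 members in all, beside 2436 of all genes (16.8%). DESeq2 called 15 of the 17 and 24 of 106 members in all, beside 3039 genes (21%). With both count tools, the share of members called was thus only a little above that of all genes, with both directions counted. Over all 80 nuclear subunits 77 were below 0, with a median of -0.26 beside 0.07 over all genes, of which 58.9% were above 0. Promoters were available for 13 of the 17, and 4 of these (30.8%) held the nuclear respiratory factor 1 letters on either strand, beside 15 of the 62 other nuclear members with a promoter (24.2%).

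Markers of fat cells moved with the name sets. Of 8 fat cell markers 7 were lower in CGI (median -2.10), among them Adipoq at -2.47 ± 0.67, Cfd at -3.04 ± 0.66 and Cidec at -2.96 ± 0.55, and the brown fat uncoupler Ucp1 was lower at -2.75 ± 0.70 (limma adjusted p = 0.0267, 0.00830, 0.00357 and 0.0196). The summed fat cell markers ran from 308 to 830 CPM in CGI and from 354 to 1902 CPM in the LARA libraries compared, with Adipoq listed at 0 in WF10. Of the 8 atrial myocyte markers, Nppa was lower at -0.46 ± 0.14 (limma adjusted p = 0.0420). Bmp10, another of them, measured 15.6, 5047 and 6179 CPM in CGI libraries (lowest, median and highest), 0.433, 1.25 and 4811 CPM in the 6 libraries named LA, and 444, 4529 and 6410 CPM in the 6 named RA. Its log2 difference was 3.05 ± 1.74 (limma adjusted p = 0.274), so it did not pass, and most LA libraries lay far below most of the others. Among 6 immune markers Ptprc was higher in CGI at 0.65 ± 0.18 and Cd68 lower at -0.74 ± 0.17 (limma adjusted p = 0.0316 and 0.0115). All 7 erythroid markers (median -0.80) and all 9 mesothelial markers (median -0.37) were below 0, with 0 passing. Their part in the result was not tested.

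Genes that serve the chain without lying in it were followed with the same fits, on lists chosen by function. In the knockout comparisons none passed in any of the 6 lists. In males, Tefm, an elongation factor of mitochondrial transcription, had a log2 difference of -0.60 ± 0.16 and Mterf2, a mitochondrial termination factor family member, -0.70 ± 0.21 (limma adjusted p = 0.169 and 0.219). In females Lrpprc, which stabilises mitochondrial mRNA, had -0.61 ± 0.21 and Coq10b, a coenzyme Q binding protein, 0.92 ± 0.32 (limma adjusted p = 0.935 for both). Of the assembly lists, Cox18 had 0.59 ± 0.20 and Sdhaf2 -0.42 ± 0.15 in males (limma adjusted p = 0.264 and 0.297).

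In the comparison of CGI with LARA, 3.02% of all genes were lower and 4.8% higher, the background for each list here. Of 17 electron carrier genes, 4 were lower. These were Etfa at -0.50 ± 0.14 and Etfb at -0.68 ± 0.15, the subunits of the electron transfer flavoprotein, its dehydrogenase Etfdh at -0.66 ± 0.16 and the coenzyme Q synthesis gene Coq6 at -0.58 ± 0.15 (limma adjusted p = 0.0279, 0.00840, 0.0157 and 0.0255). Of 19 genes of mitochondrial RNA stability, Rexo2 was lower at -0.47 ± 0.14 (limma adjusted p = 0.0371). Of 12 regulators of nuclear respiratory genes, Esrra, which encodes an estrogen-related receptor, was higher at 0.45 ± 0.13 (limma adjusted p = 0.0375). No gene passed among the 15 of mitochondrial DNA upkeep and transcription, the 25 of complex III and IV assembly or the 16 of complex II and V assembly. The 8 complex I assembly factors among the members did not pass either, and had medians of 0.13 for knockout against wild type in both sexes, 0.15 in females, -0.32 in males and -0.14 for CGI against LARA.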

How the data were processed

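Per the labels, RNA from mouse atria was sequenced as stranded mRNA libraries, and the submitters' processing notes name HISAT2, HTSeq, DESeq2 and the mm10 build, with versions not given in the sources used here. The deposited values are CPM: the file headers call them FPKM, but in every library 100% of values were whole multiples of 1 step (tolerance 0.001 reads), which also gave the depths. The authors also deposited a log2 fold change and a p-value for each gene. Of 14467 lines, 10 lines of 5 repeated symbols were left out. Because the values were not counts, log2(CPM + 1) was fitted with limma 3.58.1 (R 4.3.3) over 14457 genes, with Benjamini-Hochberg adjustment at 0.05. A filter of 1 CPM in 5 libraries removed 0 genes. The recovered reads were also tested with edgeR 4.0.16 and DESeq2 1.42.0. The limma fits were also run on simulated data, and the edgeR and DESeq2 fits were not. Terms were sex and name set for both sexes, name set for females, none for males, genotype by sex with name set for the interaction, and group for CGI against LARA. Positions come from the GENCODE M21 annotation of GRCm38. Members and lists were chosen with earlier results of these data known. Named genes were up to 10 passing members per direction, or the smallest p-values where fewer than 5 passed, with mitochondrial protein genes, core subunits and isoform pairs always eligible. Counts over the members include a gene whose own result is not reported here.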

Additional observations from a re-analysis of the deposited data

Results flagged for a closer look

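In 96 groups of 5 to 8 libraries (24 measures in 4 groups), the highest or lowest library was set against the spread of its group, a rule that chance meets in about 1 group in 20. It was met 19 times. Many of the measures overlap and come from the same libraries, so the 19 are not independent and cannot be weighed against that rate. WF10, the least deep library, stood apart among wild-type females for the share of CPM of all mitochondrial members (30.2%), for the mitochondrial minus nuclear mean log2 level (6.12), for the ratio of Cox6a2 to Cox6a1 (24.2) and for that of Cox8b to Cox8a (3.24). KM01, the second least deep, stood apart among knockout males for the share of all mitochondrial members (18.5%), that of the protein genes (17.2%), mt-Co1 (52072 CPM), mt-Cytb (35811 CPM) and mt-Nd1 (22260.5 CPM).

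KM13, the only knockout male of the LARA set, stood above the other knockout males for Cox5a (497 CPM), Ndufa11 (622 CPM) and Ndufs8 (527 CPM). WM4 was the highest wild-type male for the ribosomal RNA share (1.98%), mt-Rnr1 (6130 CPM) and mt-Rnr2 (13638 CPM), and KF16 was the highest knockout female for the same measures (2.05%, 5776 CPM and 14718 CPM). KF14 was the highest knockout female for mt-Co3 (10.96 CPM).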

How the results depend on the processing

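No member passed in the 3 knockout comparisons under any planned pseudocount, filter, scaling or count tool, nor in the sex difference except with DESeq2, which called 6 members lower among 235 genes of all. The sex difference cannot be fitted without KM13, so KM13 was never left out there. Leaving out 1 library gave 0 to 5 members in males and 0 in every fit made of both sexes, females and the sex difference. It moved the mitochondrial median between -0.28 and -0.06 in both sexes, -0.18 and 0.13 in females and -0.23 and 0.09 in males, and the nuclear median between 0.09 and 0.21, 0.07 and 0.23, and -0.47 and -0.14. With name set as a term in males the medians were -0.58 and 0.20. In the CGI against LARA comparison, leaving out 1 library gave 8 to 31 lower members. Leaving out the libraries named LA, chosen after seeing the data, gave 1, with fewer libraries compared. The cause of the other changes was not tested. Of 8843 values of single genes under alternatives, Pam included, 8703 stayed on the same side of the threshold. Another 47 newly passed, 93 no longer passed and 0 reversed while passing. Most of these values had not passed in the main fit, so the count of unchanged values says little about those that had. Of the 17 members called for CGI against LARA, 8 passed in every fit without 1 library, and 1 passed without the libraries named LA. In males the replicate numbers 1, 3, 5 and 7 occur in both genotypes, but the deviations of same-numbered libraries correlated at 0.24, -0.20, 0.25 and 0.07, not all over 0.1, so the numbers were not taken to pair them. With a replicate block 0 members passed and the nuclear median was -0.52. Depth limits mt-Tc, mt-Tq, mt-Co3 and mt-Atp6, which lay near 3 reads in several libraries.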
